A study of Homo sapiens with 1 sample.

Results

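The genes described here are 8 genes of sterol synthesis and its control, HMGCS1, MVD, IDI1, FDFT1, SQLE, LSS, DHCR7 and INSIG1. They were taken by symbol from the 33538 genes of the count table, and each symbol matched 1 row. The group they were proposed under also names sterol uptake, but none of the 8 is an uptake receptor. Uptake and transport genes were therefore read from a separate list. The data were 1 single-cell RNA-seq (scRNA-seq) library of hHAR123 cells, which are H9 human embryonic stem cells of genotype WT that carry the human form of HAR123, an enhancer that changed rapidly in the human lineage. The cells had received 5 uM Rock inhibitor, 1 uM Dorsomorphin and 10 uM SB431542 for 2 days, then Dorsomorphin and SB431542 at the same doses for 5 days as rotating embryoid bodies, and had grown for 7 days on Matrigel without these agents. They were collected as neural progenitor cells (NPCs) ahead of rosette selection. Independent clones had been pooled into the library, and its cells could not be assigned to a clone. With 1 library there was no replicate, so no test was run, and each interval below is a 95% interval for counting error only.

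The count table held unique molecular identifiers (UMIs), each of which stands for 1 captured RNA molecule. Of 14726 barcodes, 13925 passed the filter of 2000 to 10000 detected genes and a mitochondrial share below 0.1, and these had a median of 17900 UMIs. A contractile class was drawn at a summed level of ANXA1, TFPI2 and CTGF of 5 or more UMIs per 10000, which took 1584 cells and left 12341 cells, called other cells below. This class is a range of a continuous score, since 89 cells lay between 4 and 5 and 72 cells between 5 and 6. All 7 contractile markers listed were higher in the class, with a median over cells of 44.1 TAGLN UMIs per 10000 against 0 in other cells. The 5 forebrain markers were lower in it. Of the 5 neural progenitor markers, SOX2, PAX6 and HES5 were lower and the filament genes NES and VIM higher, with ratios of 2.79 and 4.76, so the list's summed level was 5116 CPM in the class against 1791 CPM. Contractile cells were also deeper, at a median of 47217 UMIs against 16910.

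Cells build cholesterol from acetyl-CoA through mevalonate, the isoprenoid units, squalene and lanosterol. The genes of this route are known targets of the SREBP transcription factors. These are held in the endoplasmic reticulum by INSIG and SCAP proteins while sterol is plentiful, and are released to the nucleus when it is scarce. Dividing cells need sterol for new membrane, and progenitors of the developing brain make their own. HMGCS1 makes HMG-CoA, from which mevalonate is formed. MVD and IDI1 act further along the mevalonate part, where MVD forms isopentenyl diphosphate and IDI1 interconverts the isoprenoid units. FDFT1 joins farnesyl units to squalene, SQLE oxidizes squalene, and LSS closes the ring to lanosterol. DHCR7 carries out the last step to cholesterol. INSIG1 makes no sterol but is a brake on the pathway and is itself a target of SREBP.

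SREBP acts on its targets through short motifs near the start, so the promoter sequences were searched for these motifs. RefSeq promoter entries (GRCh38.p14) were found for 6 of the 8 genes, on 6 different chromosomes, and there was no entry for SQLE and FDFT1. The motif CCAAT, which binds NF-Y, a known partner of SREBP, was searched on both strands (CCAAT or ATTGG) in the 250 bases before each start. It occurred in 7 of the 10 entries of these genes, and each of the 6 genes had an entry with it, while 32.01% of all 35116 entries held it. GGGCGG (or CCGCCC), a core of Sp1 sites, was found in 9 of the 10 entries, for the same 6 genes, and in 42.64% of all entries. The sterol element written TCACNCCAC (or GTGGNGTGA) was found for none of the 6 genes and in 0.88% of all entries, which says only that these letters were not in these windows. Stretches that overlap no annotated exon are shown for HMGCS1 and MVD of the mevalonate part, LSS of the squalene part and the regulator INSIG1, with CCAAT or ATTGG in capitals. They read 5′ to 3′ on the strand of the gene, and positions count back from the start. HMGCS1 lies at chr5:43313513-43313662 (minus strand, positions -250 to -101). MVD lies at chr16:88663162-88663297 (minus strand, -206 to -71), LSS at chr21:46228825-46229024 (minus strand, -250 to -51) and INSIG1 at chr7:155297628-155297775 (plus strand, -250 to -103).
HMGCS1: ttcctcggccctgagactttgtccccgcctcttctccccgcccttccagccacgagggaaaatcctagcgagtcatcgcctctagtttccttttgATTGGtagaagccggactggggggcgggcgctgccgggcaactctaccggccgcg
MVD: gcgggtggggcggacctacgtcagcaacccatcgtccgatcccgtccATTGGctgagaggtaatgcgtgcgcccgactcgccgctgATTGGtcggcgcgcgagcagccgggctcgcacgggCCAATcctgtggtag
LSS: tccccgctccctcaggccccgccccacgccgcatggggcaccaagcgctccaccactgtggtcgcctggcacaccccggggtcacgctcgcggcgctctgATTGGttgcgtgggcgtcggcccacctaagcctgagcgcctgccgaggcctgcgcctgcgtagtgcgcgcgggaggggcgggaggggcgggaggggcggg
INSIG1: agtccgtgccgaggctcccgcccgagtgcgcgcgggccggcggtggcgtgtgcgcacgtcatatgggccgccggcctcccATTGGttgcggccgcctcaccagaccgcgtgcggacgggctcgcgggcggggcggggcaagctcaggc
MVD had 3 matches in its stretch and the other genes shown had 1 each, between 150 and 170 bases before the start.

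Levels are given in CPM, the UMIs of a gene per 1000000 UMIs of a group of cells. The counts come from 3′ ends and are not divided by length, so levels are compared between groups of cells and not between genes. Summed over the 8 genes, the level was 1105 CPM (1097 to 1112) in contractile cells and 864 CPM (860 to 868) in other cells, a ratio of 1.28 (1.27 to 1.29). The median of all 7690 genes at 20 CPM or more had a ratio of 0.881 on the same scale, a shift of -0.18 in log2. Relative to that median, the summed ratio was 1.45 and the median ratio of the 8 genes was 1.56.

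In the mevalonate part, HMGCS1 was at 273 CPM in contractile cells and 239 CPM in other cells (ratio 1.14, 1.13 to 1.16). MVD was at 45.6 CPM against 21.5 CPM, the widest ratio of the 8 at 2.12 (2.03 to 2.21). IDI1 was at 224 CPM against 141 CPM (ratio 1.59, 1.56 to 1.62). Of these genes, HMGCS1 thus lay the least apart between the classes. IDI1 has 3 annotated processed pseudogenes (IDI1P1 to IDI1P3) with which reads may be shared, so its level is less certain than the others.

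Along the squalene part the ratio was 1.30 (1.28 to 1.32) for FDFT1, 1.05 (1.04 to 1.07) for SQLE and 1.44 (1.39 to 1.5) for LSS. SQLE, which is known as the second rate-limiting enzyme of the route, was at 199 CPM in contractile cells and 189 CPM in other cells, close to level. DHCR7, at the end of the route, was at 38.8 CPM against 23.1 CPM (ratio 1.68, 1.61 to 1.76). The regulator INSIG1 was at 36.4 CPM against 33.6 CPM (ratio 1.08, 1.04 to 1.13). Thus 3 of the 8 genes, MVD, DHCR7 and IDI1, were at least 1.5-fold higher in contractile cells, where 11.0% of all genes tested were. None of the 8 was 1.5-fold lower, where 24.3% of all genes were.

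Depth moved with this difference. Per cell rather than per UMI, contractile cells held 3.21 times as many UMIs of the 8 genes. Within other cells, the summed level was 754 CPM in the shallowest of 4 equal groups by depth and 941 CPM in the deepest. Over 4 such groups of contractile cells it lay between 1008 and 1132 CPM. Without thinning, among cells of 30000 to 40000 UMIs alone, 287 contractile against 843 other, the summed ratio was 1.13 (1.11 to 1.16). There HMGCS1 (1.01, 0.965 to 1.05), SQLE (1.02, 0.972 to 1.08) and INSIG1 (0.944, 0.834 to 1.07) had intervals that include 1. MVD (1.71, 1.51 to 1.93), DHCR7 (1.52, 1.34 to 1.73) and IDI1 (1.45, 1.37 to 1.52) were still well above 1 in this band of depth, though IDI1 was then below 1.5. FDFT1 (1.08, 1.03 to 1.13) and LSS (1.17, 1.06 to 1.30) were nearer to 1 than over all depths, with intervals above it. The contractile score and the cell cycle phase, both described below, also moved with depth in other cells. They were not matched in this band, and their part in the lower ratios was not tested. The median of all genes in the cells of this band was 0.872, so relative to it the summed ratio was 1.30. Relative to that median, HMGCS1 was at 1.16, SQLE at 1.17 and INSIG1 at 1.08. Of these genes, only INSIG1 had an interval that includes 0.872.

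The score that defines the class is continuous, so the levels were also read along it. The summed level was 849 CPM in the 10990 cells with a score under 1, 917 CPM between 1 and 2, and 1003 CPM between 2 and 4. Just outside the limit, at 4 to 5, it was 1036 CPM (1000 to 1074), and just inside, at 5 to 6, it was 1013 CPM (975 to 1053). At 6 to 10 it was 994 CPM (974 to 1014), and above 10 it was 1125 CPM. So the level was already higher in cells below the limit that held some of the 3 genes, and there was no break at the limit itself. The median depth was higher at every step, from 16582 UMIs under 1 to 31951 UMIs at 4 to 5, 37208 UMIs at 6 to 10 and 50527 UMIs above 10, while the level was not. The part of depth in the levels was not tested beyond the matched band.

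**Figure D1:**
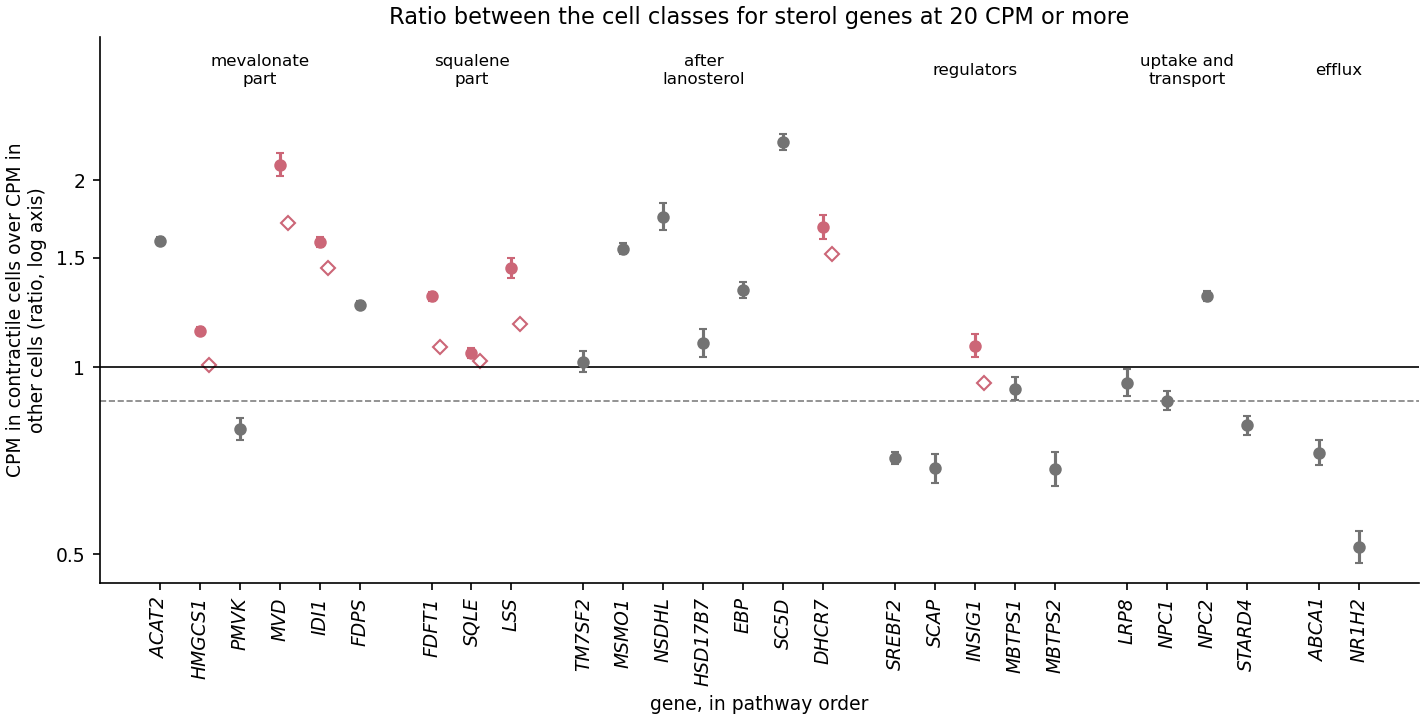
Ratio of the CPM in contractile cells to the CPM in other cells (log axis) for each gene of the sterol lists at 20 CPM or more, in pathway order, with 95% counting intervals. Red points are the 8 genes and grey points the other listed genes, open diamonds give the 8 genes in cells of 30000 to 40000 UMIs, and the dashed line is the median of all genes at 0.881. MVD is the highest of the 8 at 2.12 and SQLE the lowest at 1.05.

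The other genes of the pathway, from lists chosen by function, filled in the route. Outside the 8, 1 of 3 mevalonate genes and 2 of 5 genes after lanosterol at 20 CPM or more in other cells were at least 1.5-fold higher in contractile cells (11.0% of all genes tested), and none was 1.5-fold lower (24.3% of all genes tested). SC5D, which desaturates the sterol ring just ahead of DHCR7, was at 91.9 CPM against 39.9 CPM (ratio 2.30, 2.23 to 2.38). NSDHL and MSMO1 act on the methyl groups left after lanosterol. NSDHL was at 31.8 CPM against 18.2 CPM, so it passed the 20 CPM limit only through contractile cells and is not in the count. MSMO1 had a ratio of 1.55, and ACAT2, which opens the route by joining acetyl-CoA units, had 1.60. The gene of the main sterol SREBP, SREBF2, was lower in contractile cells, at 127 CPM against 178 CPM (ratio 0.714, 0.699 to 0.730). None of the 4 regulators tested besides INSIG1 was 1.5-fold apart, where 11.0% of all genes were higher and 24.3% lower. They were not level, since their median ratio was 0.701 and that of all genes 0.881. SCAP was at 0.688, MBTPS2 at 0.686 and MBTPS1 at 0.924.

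None of the 4 tested uptake and transport genes was 1.5-fold apart, where 11.0% of all genes were higher and 24.3% lower. VLDLR, a lipoprotein receptor below the 20 CPM limit, was at 13.8 CPM against 1.72 CPM (ratio 8.0, 7.13 to 8.99). VLDLR, SREBF2 and STARD4 have annotated antisense genes, and the counting strand is not known here, so reads of the pairs may not be told apart. On the side of efflux, the LXR gene NR1H2 was at 16.2 CPM against 31.5 CPM (ratio 0.514, 0.483 to 0.546). Of the 7 tested genes of fatty acid synthesis, which share SREBP control, none was 1.5-fold apart either, against the same shares of all genes, and their median ratio was 1.17.

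Cell cycle phases were called per cell from the S and G2/M gene lists of Seurat. Other cells were divided into 3415 G1, 5065 S and 3861 G2/M cells, and contractile cells into 358, 536 and 690. In other cells the summed level was 780 CPM in G1, 822 CPM in S and 954 CPM in G2/M. The ratio of G2/M to G1 was 1.22 (1.21 to 1.24) and that of S to G1 was 1.05 (1.04 to 1.07), while the medians of all genes were 1.05 and 0.998. G2/M cells of this class also held more UMIs, so that per cell the ratio of G2/M to G1 was 1.99.

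IDI1 had the widest contrast by phase, at 107 CPM in G1, 146 CPM in S and 153 CPM in G2/M (G2/M over G1 1.43, 1.39 to 1.48). FDFT1 and SQLE differed mainly between S and G2/M. FDFT1 was at 161 CPM in G1, 162 CPM in S and 208 CPM in G2/M, and SQLE was at 171, 175 and 212 CPM. HMGCS1 was lowest in S at 224 CPM, with 231 CPM in G1 and 259 CPM in G2/M. LSS was the exception, at 40.1 CPM in G1 and 37.9 CPM in G2/M (ratio 0.946, 0.895 to 1.00). MVD, DHCR7 and INSIG1 had G2/M to G1 ratios of 1.18 (1.09 to 1.27), 1.21 (1.12 to 1.30) and 1.26 (1.19 to 1.34).

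A gene was counted as higher in a phase when its level was at least 25% above that in G1, and as lower at the inverse of that ratio. By this rule 1 of the 8 genes (IDI1) was higher in S than in G1, where 18.9% of all genes tested were, and none was lower, where 11.5% were. Between G2/M and G1, 3 of the 8 (IDI1, FDFT1 and INSIG1) were higher against 20.4% of all genes, and none was lower against 11.0%. The S count is thus near the share of all genes. Of the 19 tested genes of the sterol lists outside the 8, 5 were counted as higher in G2/M than in G1 (20.4% of all genes). A further 3 were counted as lower (11.0% of all genes), so both counts are near the shares of all genes. The 19 include NSDHL, which was at 18.2 CPM in other cells and was counted in neither direction. ABCA1, the pump that exports cholesterol to lipoprotein particles, was among the lower ones, at 32.9 CPM in G2/M against 69.9 CPM in G1 (ratio 0.470, 0.448 to 0.494).

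In contractile cells the phases lay closer. Their summed level was 1008 CPM in G1, 1141 CPM in S and 1121 CPM in G2/M, so S and not G2/M was highest. The class ratio was accordingly 1.29 (1.27 to 1.32) in G1, 1.39 (1.37 to 1.41) in S and 1.17 (1.16 to 1.19) in G2/M. MVD kept a ratio near 2 in every phase, at 1.95 (1.75 to 2.16), 2.33 (2.17 to 2.51) and 2.01 (1.89 to 2.14). SQLE was on opposite sides of 1, with 1.16 (1.12 to 1.20) in S and 0.969 (0.944 to 0.995) in G2/M, and INSIG1 was at 1.29 (1.17 to 1.42) in G1 and 0.940 (0.881 to 1.00) in G2/M. These differences between phases were not tested.

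**Figure D2:**
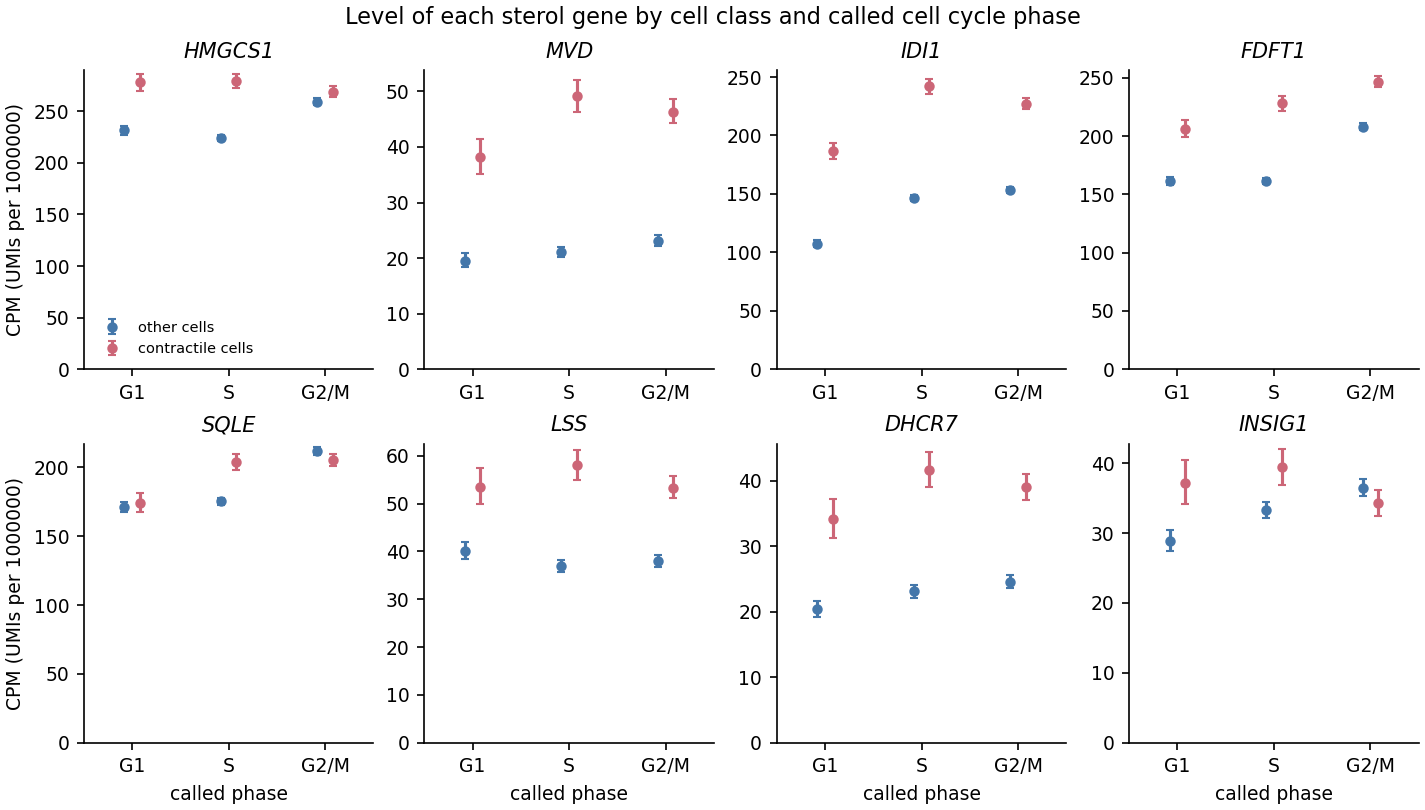
Level in CPM of each of the 8 genes in G1, S and G2/M cells, with exact 95% Poisson intervals, for other cells (blue) and contractile cells (red). IDI1 in other cells is at 107 CPM in G1 and 153 CPM in G2/M, and in G2/M the contractile value lies below that of other cells for SQLE (205 against 212 CPM) and INSIG1 (34.3 against 36.5 CPM).

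Among the other cells, 107 had 10 or more UMIs per 10000 over 5 neuron markers, and 97 of them were called G1. In these cells the summed level was 736 CPM (695 to 779) against 865 CPM in the remaining other cells, a ratio of 0.851 (0.803 to 0.901). FDFT1 was at 123 CPM against 180 CPM (ratio 0.685, 0.593 to 0.788), and DHCR7 at 15 CPM against 23.2 CPM (0.648, 0.415 to 0.965). LSS was higher, at 53.2 CPM against 37.9 CPM (1.40, 1.12 to 1.74), on 85 UMIs. INSIG1 had a ratio of 1.29 whose interval starts at 1.00, so the direction was not shared by all 8 genes. These comparisons are with cells of all phases. All other cells called G1, neuron-marker cells included, had a summed level of 780 CPM (772 to 788). The neuron-marker cells were also shallower, at a median of 13101 UMIs against 16910 UMIs over all other cells. The part of phase and depth in these ratios was not tested.

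Whether the 8 genes varied together from cell to cell was read after each cell had been thinned at random to 5000 UMIs, so that depth was equal. This kept 12316 of the other cells and 1581 contractile cells. Over the 8 genes an other cell then held 4.15 UMIs on average, from 0 in 636 cells to 21. Counts this low limit Pearson's r, so a second measure was used, the covariance of a pair over the product of its means, which counting noise does not shrink. Its square root is the joint coefficient of variation. The points of each r are cells of the same library, with the same depth.

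In other cells all 28 pairs had an r above 0, from 0.013 for LSS with DHCR7 to 0.133 for HMGCS1 with IDI1, with a median of 0.051. These correlations are weak at this depth. The median relative covariance was 0.170, a joint coefficient of variation of 41.2%, and it ranged from 0.070 for FDFT1 with LSS to 0.331 for INSIG1 with MVD. At 2500 and 10000 UMIs per cell, the median r was 0.025 and 0.084, while the median relative covariance was 0.148 and 0.165. The r therefore followed the depth, and the relative covariance did so little. By gene, INSIG1 had the highest median relative covariance with the other 7 genes (0.238), followed by MVD (0.206), and LSS had the lowest (0.094).

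In contractile cells the median r was also 0.051, with 27 of 28 pairs above 0. The median relative covariance was 0.110, and for LSS it was 0.064. LSS with SQLE was the pair below 0 (r of -0.011), and LSS was near 0 with IDI1 and HMGCS1. DHCR7 with MVD had the highest value of the class at 0.473, on 299 and 359 thinned UMIs over all 1581 cells.

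**Figure D3:**
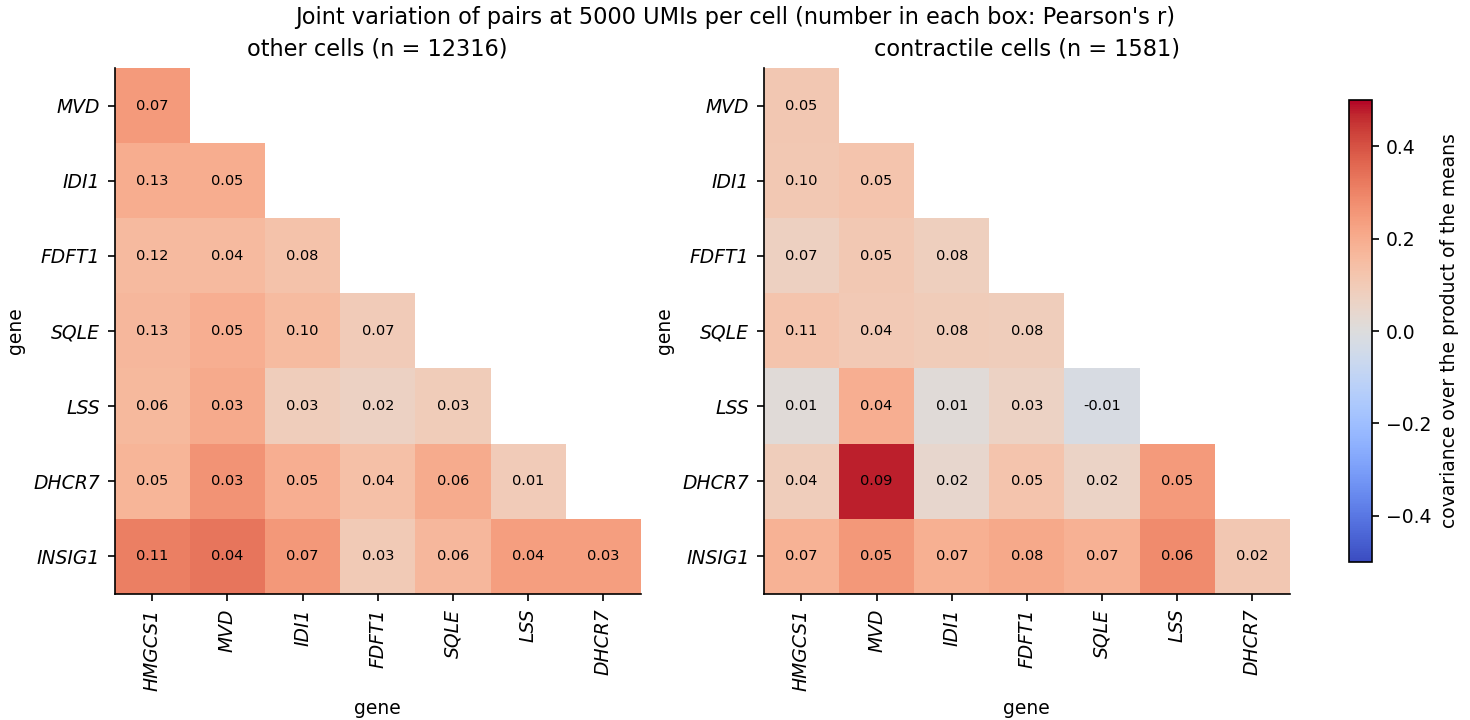
Relative covariance (colour) and Pearson's r (number) of each pair of the 8 genes at 5000 UMIs per cell, in 12316 other cells (left) and 1581 contractile cells (right). In other cells all boxes are above 0, and for INSIG1 they range from 0.099 with FDFT1 to 0.331 with MVD. In contractile cells the boxes of LSS with HMGCS1, IDI1 and SQLE are near 0.

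The size of this joint variation is easier to see when cells are ranked. For each gene, cells were ordered by the summed UMIs of the other 7 genes and cut into 5 equal sets, from set 1 (lowest) to set 5 (highest), and the gene's own level was read in each set. INSIG1 in other cells was at 19.7 CPM in set 1 and 47.9 CPM in set 5 (a ratio of set 5 to set 1 of 2.43, 2.09 to 2.83). MVD was at 11.8 CPM and 28.7 CPM (ratio 2.44, 2.00 to 2.98), and DHCR7 at 14.4 CPM and 32.6 CPM (ratio 2.26, 1.89 to 2.71). HMGCS1 and IDI1 were about 2-fold apart, at ratios of 2.01 (1.90 to 2.13) and 2.05 (1.91 to 2.21). SQLE at 1.71 (1.61 to 1.82), FDFT1 at 1.70 (1.60 to 1.82) and LSS at 1.57 (1.37 to 1.80) differed least.

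All 8 genes were higher at every step from set 1 to set 5 in other cells, and their median ratio was 2.03. All 8 passed a ratio of 1.5, which 1.18% of the 7681 genes tested in these cells did. By r with the summed UMIs of the genes, 6 of the 8 reached 0.1, where 0.638% of all genes did, and the 2 below it were DHCR7 (0.092) and LSS (0.073). The median gene had a ratio of 1.01. Members were ranked by the other 7 and all further genes by all 8, so a member's value is not inflated by its own counts.

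In contractile cells 5 of the 8 genes passed 1.5, against 2.72% of the 7132 genes tested there, and their median ratio was 1.54. DHCR7 (1.98, 1.33 to 2.99) and INSIG1 (1.91, 1.31 to 2.84) were the widest, and LSS (1.10, 0.806 to 1.51) had an interval that includes 1. For r at 0.1 or more the count was 6 of 8, against 0.575% of all genes. The smaller ratio in this class stands on fewer cells, and the difference between the classes was not tested.

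**Figure D4:**
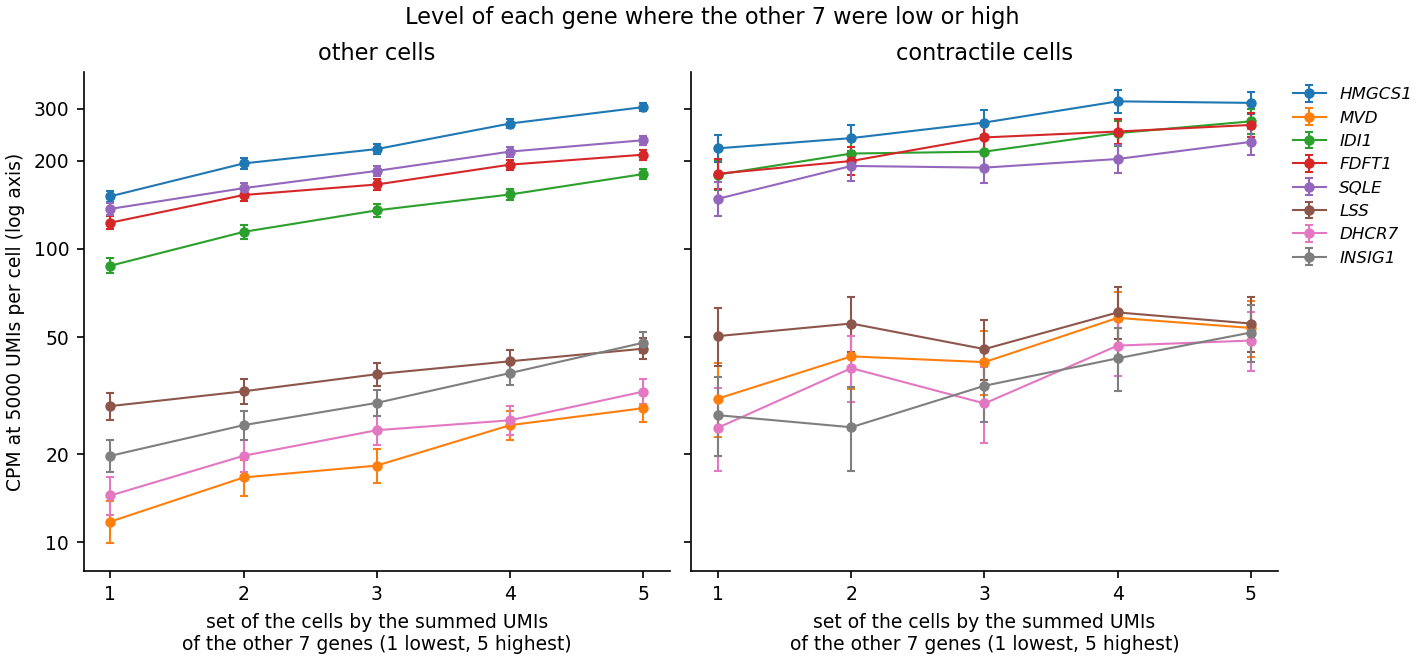
Level of each of the 8 genes (CPM at 5000 UMIs per cell, log axis) in 5 equal sets of the cells ordered by the summed UMIs of the other 7 genes, with exact 95% Poisson intervals, in other cells (left) and contractile cells (right). In other cells every line is higher at each step, as for HMGCS1 from 151 CPM to 304 CPM, and in contractile cells the lines are flatter and LSS goes from 50.5 CPM to 55.7 CPM.

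Several properties of the cells moved with this ranking. Between sets 1 and 5 of other cells ranked by all 8 genes, the median depth before thinning was 15577 and 18617 UMIs, and the share called G2/M was 21.2% and 39.1%. The mean TAGLN level was 2.08 and 4.52 UMIs per 10000, and the median mitochondrial share was 5.20% and 5.08%. Depth, mitochondrial share and contractile RNA were each limited in turn. Within 15000 to 20000 UMIs the median r was 0.058 and the median ratio of set 5 to set 1 was 1.98. In cells with a contractile score under 1 and TAGLN under 5 per 10000 these were 0.050 and 2.02. With a mitochondrial share below 0.05 they were 0.054 and 2.04. The joint variation was about as large within a narrow range of depth and in cells low in contractile RNA as in all other cells. The part of depth, mitochondrial share and contractile RNA in it was not tested.

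By phase, the joint variation of other cells was widest in G1. Among 3406 other cells called G1, the median r was 0.069, the median relative covariance 0.253 and the median ratio of set 5 to set 1 was 2.41, against 2.07 in S and 1.66 in G2/M. INSIG1 was at 11.1 CPM in set 1 of the G1 cells and 44.1 CPM in set 5 (ratio 3.95, 2.75 to 5.80), and MVD at 8.21 CPM and 31.1 CPM (3.79, 2.48 to 5.97). All 8 genes passed a ratio of 1.5 in G1 (0.832% of 7450 genes did), and all 8 reached an r of 0.1 (1.07% of genes did). Depth was nearly even along this ranking, at a median of 13272 UMIs in set 1 and 13719 UMIs in set 5. In G2/M, 5 of the 8 passed 1.5, which 0.389% of the 7719 genes tested there did, and LSS was at 1.15 (0.912 to 1.46). Among contractile cells G1 was not the widest. Their median r was 0.035 in G1, 0.062 in S and 0.045 in G2/M. Their median ratio of set 5 to set 1 was 1.49, 1.65 and 1.47 in the same order. The difference between phases was not tested, and phase calls rest on the same counts, free RNA included.

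The genes whose pattern was most like that of the 8 were picked by r with their summed UMIs in other cells, among genes at 20 CPM or more. The first outside the 8 was of the same pathway, MSMO1 (r of 0.225), and ACAT2 (0.194) and FDPS (0.158) were among the 15 highest. FDPS has 8 annotated pseudogenes, HSD17B7 has 2 and SCD has 1, with which reads may be shared. MSMO1 was at 67.8 CPM in set 1 and 172 CPM in set 5 (ratio 2.54, 2.34 to 2.76), the widest ratio of all genes tested. Of the 15, 10 were not sterol genes. They held the chaperones HSP90AA1 (0.199) and HSP90B1 (0.159), the tubulin TUBA1B (0.196), the actin ACTB (0.143), the chromatin proteins NUCKS1, HMGN2 and H2AFZ (0.145 to 0.159), and the mitotic genes CENPF, BIRC5 and TOP2A (0.129 to 0.141).

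The ratios of these non-sterol genes were uneven. HSP90AA1 had a ratio of set 5 to set 1 of 1.32 (1.29 to 1.34) and ACTB of 1.24 (1.22 to 1.26), while CENPF had 1.69, BIRC5 1.82 and TOP2A 1.85, within the range of the 8 genes. By relative covariance, which low counts do not shrink, the order differed. MSMO1 was still the first outside the 8 (0.211), followed by HSD17B7 (0.183) and the contractile gene TAGLN (0.171). Further non-sterol genes were among the 15 highest by this measure too. They held ANXA3 (0.168), the contractile gene MYL9 (0.149) and the mitotic genes TROAP (0.158), PLK1 (0.155), UBE2C (0.153), CDC20 (0.147) and HMMR (0.146). HSP90AA1 (0.062) and ACTB (0.049) were not among the 15. TAGLN, ANXA3, MYL9, TROAP, PLK1, UBE2C, CDC20 and HMMR were named here after their values were seen. CENPF, BIRC5 and TOP2A are in the lists that called the phases. Within G1 cells alone TUBA1B had an r of 0.284 and a ratio of 2.03, next to MSMO1 with 0.301 and 3.83. BIRC5, TOP2A and CENPF had r of 0.174, 0.088 and 0.135 there, and ratios of 2.71, 2.06 and 1.78. At the other end, the 5 genes with the lowest r were ribosomal protein genes, RPL5 (-0.132), RPL13A, RPS14, RPL10 and RPS15A (-0.118), with ratios from 0.852 to 0.887. At a fixed total of UMIs per cell, more of some RNAs is less of the rest, and the part of this in these values was not tested.

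The sterol lists were also read against the rank of the 8 genes, with no test between lists. Outside the 8, 2 of 3 mevalonate genes and 3 of 5 genes after lanosterol at 20 CPM or more in other cells had a ratio of set 5 to set 1 of 1.5 or more (1.18% of all genes tested did), among them HSD17B7 (2.21, 1.86 to 2.63). TM7SF2 (1.09, 0.971 to 1.22) and PMVK (1.2, 1.11 to 1.40) were lowest. STARD4, a carrier of cholesterol within the cell, had a ratio of 1.58 (1.42 to 1.76). NPC1 (0.995, 0.893 to 1.11) and NPC2 (0.941, 0.886 to 0.997), which move sterol out of lysosomes, were near 1, and the lipoprotein receptor LRP8 had 1.40 (1.19 to 1.63). In other cells the median ratio was 1.60 over 3 mevalonate genes and 1.59 over 5 genes after lanosterol. Over 4 uptake and transport genes it was 1.20. In contractile cells it was 1.30 over 3 mevalonate genes and 1.31 over 6 genes after lanosterol, NSDHL now included. Over the 4 uptake and transport genes it was 1.59 there, and 1.02 over all genes tested. Those 4 ranged from NPC2 at 0.975 (0.841 to 1.12) to LRP8 at 2.56 (1.45 to 4.68). With intervals this wide, no order of the lists is read in contractile cells.

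Among the regulators other than INSIG1, none of 4 reached 1.5, and 1.18% of all genes did. SCAP (0.900, 0.780 to 1.04), MBTPS1 (0.984, 0.866 to 1.12) and MBTPS2 (0.966, 0.815 to 1.14) had intervals that include 1, and SREBF2 had 1.27 (1.19 to 1.35). Fatty acid genes lay between, with a median of 1.28 over 7 genes and 1 of them past 1.5 (1.18% of all genes), the desaturase SCD at 1.68 (1.53 to 1.84).

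ABCA1 went the other way. It was at 64.4 CPM in set 1 and 36.1 CPM in set 5 (ratio 0.561, 0.498 to 0.630), the second lowest ratio of the 7681 genes, and NR1H2 was at 0.827 (0.719 to 0.949). Since ABCA1 was also higher in G1, it was read there alone, where it was at 93.8 CPM and 52.3 CPM (0.557, 0.460 to 0.670). The ratio was thus similar in cells called G1 and in all phases. Cells called G1 still differed in mitotic RNA along this ranking, with BIRC5 at a ratio of 2.71. The part of the cell cycle in the ABCA1 pattern was not tested. In contractile cells the ratio of ABCA1 was 0.675 (0.436 to 1.03), an interval that includes 1. Neuron-marker cells held more ABCA1, at 173 CPM against 40.2 CPM in the remaining other cells, and 33 of them were in set 1 and 18 in set 5. Without them the ratio was 0.552 (0.489 to 0.624) in all phases and 0.583 (0.477 to 0.710) in G1. ABCA1 is known as a target of the LXR receptors, which are activated by sterols.

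**Figure D5:**
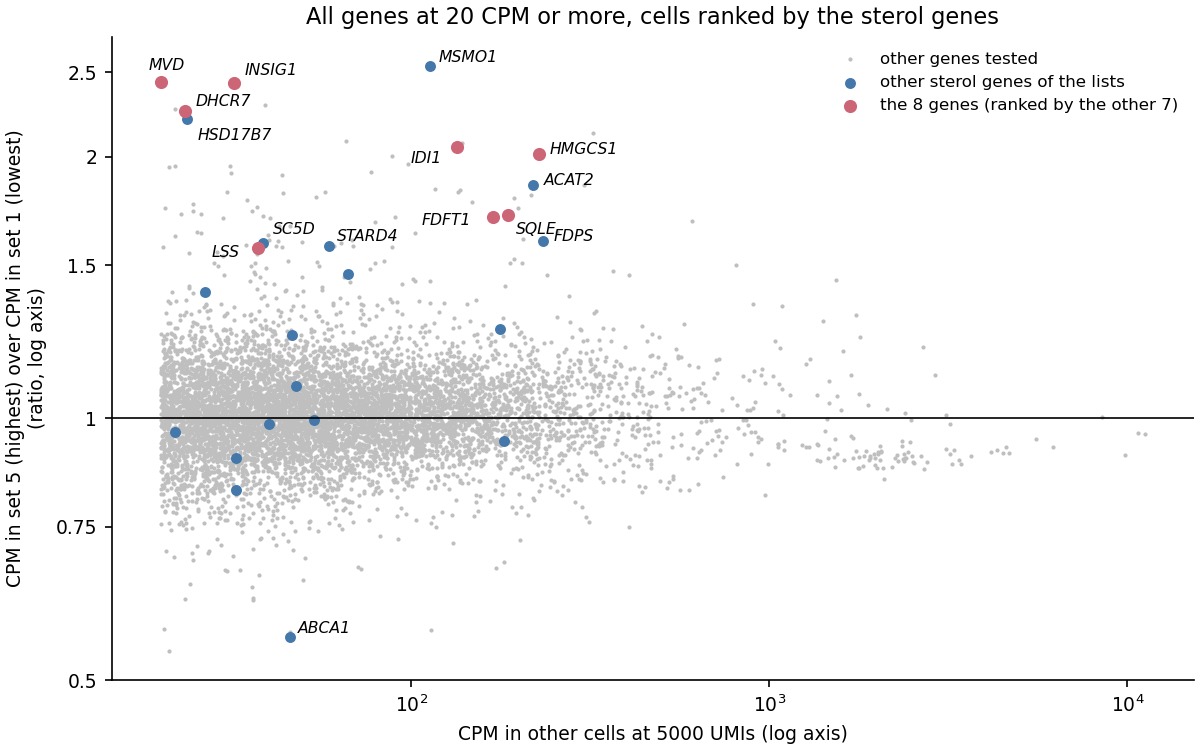
Ratio of the CPM in set 5 to the CPM in set 1 of other cells ranked by the 8 sterol genes (log axis), against the level of each gene in CPM at 5000 UMIs per cell (log axis), for the 7681 genes at 20 CPM or more. Red points are the 8 genes, each ranked by the other 7, and blue points the further genes of the sterol lists. MSMO1 is the highest of all at 2.54 and ABCA1 lies near the bottom at 0.561.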

How the data were processed

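scRNA-seq was performed on 1 library of hHAR123 cells. The authors deposited raw counts of UMIs per gene and cell barcode, which had been mapped to GRCh38 with Cell Ranger (v7.0.1) at default parameters and limited by that software to barcodes called as cells. The submitters' processing notes also name Seurat (v4.4.0). The gene annotation and the counting strand are not given in the sources used here.

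Cells with 2000 to 10000 genes and a mitochondrial share below 0.1, read as a fraction, were kept. Levels are summed UMIs of a gene over all UMIs of a group of cells, with exact 95% Poisson intervals. Ratios carry exact conditional intervals. Phases were called with scanpy (v1.11.5) from 43 S and 54 G2/M genes shipped with Seurat (v5.3.0). For joint variation, cells were thinned without replacement to 5000 UMIs with a fixed seed, which left out 25 other and 3 contractile cells. Ties in the ranking were ordered at random with a fixed seed. Scrublet marked 1 of 14726 barcodes, a failed call, and doublets were left in. Genes below 20 CPM were not counted in the shares of all genes. The functions for ratios and joint variation were tested on simulated data.

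The 8 genes and all lists were chosen with earlier results of these data known, and none is independent support for a pattern. Named genes were the 8, the sterol and fatty acid lists, and the 15 genes with the highest and 5 with the lowest r with the 8. Some genes of these lists are not reported here and stand in none of the lists' counts. Barcodes carried no mark of their loading well. Exons and pseudogenes came from GENCODE v44 on GRCh38. Further tools were matplotlib 3.10.9, pandas 2.3.3, scipy 1.17.1 and numpy 2.4.6 (Python 3.11.15).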

Additional observations from a re-analysis of the deposited data

How the results depend on the processing

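All results rest on 1 library. No paired analysis was possible because there was 1 sample and no test. Each printed alternative kept its side of 1 or of 0. The ratio of contractile to other cells (1.28) was 3.21 per cell, 1.31 as a mean of each cell's own share, 1.31 after thinning, 1.29 at a contractile limit of 10 per 10000, 1.30 with a mitochondrial share below 0.05, 1.30 without the highest 8% of Scrublet scores, and 1.13 in cells of 30000 to 40000 UMIs. The S to G1 ratio (1.05) was 1.37 per cell, 1.03 as a mean of cell shares, 1.03 after thinning (1.035) and 1.07 at the limit of 10. The G2/M to G1 ratio (1.22) was 1.99 per cell. The median r in other cells (0.051) was 0.025 at 2500 UMIs, 0.084 at 10000 UMIs, 0.069 in G1, 0.035 in G2/M and 0.058 in cells of 15000 to 20000 UMIs. In contractile cells (0.051) it was 0.029 at 2500 UMIs, 0.086 at 10000 UMIs, 0.056 with a mitochondrial share below 0.05 and 0.045 at a contractile limit of 10. The median ratio of set 5 to set 1 (2.03) was 1.69 at 2500 UMIs, 2.23 at 10000 UMIs, 2.41 in G1, 1.66 in G2/M and 1.49 with cells cut into 2 parts. Thinning to another depth changes the counts behind each value, and the other causes were not tested. The other alternatives left each ratio within its counting interval. A median r has no such interval, and its other values lay within 0.049 to 0.054. The bands of depth, the cells low in TAGLN and the neuron-marker cells were chosen after seeing the data. Pairs of the rarer genes are limited by depth.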
